A study of Oryza sativa with 8 samples.

Results

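After 8 h in 250 mM NaCl, seedlings of the indica rice line Pokkali and of the japonica line Nipponbare differed at 27.8% of the loci measured. The gene lists examined here differed at about the same share, 27.3% of 282 loci, but with 56 higher and 21 lower in Pokkali. The 20 list genes that passed under every alternative that gave them a value include the sucrose exporter SWEET15, the water channel PIP2;1, the Rubisco subunit RBCS4 and the chlorophyll-degrading NYC3. The near-identical nitrate transporters NRT2.1 and NRT2.2 are among them too. Each of these was not well above background in 1 line and entered the test only through the other. Most dehydrins and the sodium exporter SOS1 did not pass the test. The comparison rests on 4 arrays chosen by sample title, 2 of Pokkali and 2 of Nipponbare at 8 h, of the 8 arrays of the series. All plants were 14 days old, were raised in a greenhouse under natural light and temperature, and were hybridised as whole seedlings, 1 replicate per one-colour array. The other 4 arrays, 2 of each line at 0 h of the treatment, are used to show which line differences were already present before the salt. An 8 h group without NaCl is not analysed here, so a difference at 8 h holds the line, its salt response and its course over the day together. The labels name no separate cultures beyond the replicate numbers, so p-values measure only the spread between these replicates.

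Nipponbare is the japonica line whose genome became the rice reference, and it is sensitive to salt. Pokkali is an indica landrace of salty coastal fields that has long served breeders as a donor of tolerance. In rice, salt first withdraws water from the cell and later loads leaves with sodium. Plants answer with abscisic acid signalling, protective dehydrins, sodium pumping by HKT, NHX and SOS1 proteins, closed water channels and a slowing of photosynthesis. In a whole seedling, fewer cells of a type and less RNA per cell cannot be told apart.

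Levels are given as the log2 intensity of a locus on an array, with 0 at the 75th percentile of that array, for replicates 1 and 2 in turn. A difference is the Pokkali mean minus the Nipponbare mean on this log2 scale, with n = 2 arrays per line. A locus passed at an adjusted p under 0.05 (limma, Benjamini-Hochberg over all 44081 loci tested, two-sided). Between 81.0% and 84.9% of the spots of an 8 h array exceeded its background clearly, and the 75th percentile was 674 to 811 intensity units. The SD, over loci, of replicate 1 minus replicate 2 was 0.42 (Nipponbare) and 0.43 (Pokkali) at 8 h, and 0.61 and 0.62 at 0 h. The arrays identify loci only by number. Gene names rest on general knowledge of those numbers, and 199 of them were also found among RefSeq gene names, where 195 lay on the chromosome that the locus number states, with all 1932 pairs on a shared chromosome in the same order. The Pokkali arrays filled 1 row of the slide and the Nipponbare arrays the other, so array row and line cannot be told apart. The probes were designed on the IRGSP5 genome, which is that of Nipponbare, so a base difference under a probe and a lower transcript level in Pokkali cannot be told apart either.

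The lines differed at 12273 of the 44081 loci (27.8%). In Pokkali 6097 of these were higher (13.8% of loci tested) and 6176 lower (14.0%). The count of each gene list stands against these shares. The higher loci differed by a median of 2.17-fold and the lower ones by 2.49-fold, and 158 loci were at least 16-fold higher against 645 at least 16-fold lower. At 69.8% of loci the values of the 2 lines did not overlap. Without scaling between arrays 37.4% of the calls were higher in place of 49.7%, and the median difference of all loci moved from 0.09 to -0.06, so the balance of higher and lower loci is relative to the scaling. Leaving out 1 array at a time left 7825 calls (without Nipponbare replicate 1), 7809 (without Nipponbare replicate 2), 8391 (without Pokkali replicate 1) and 7617 (without Pokkali replicate 2).

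**Figure D1:**
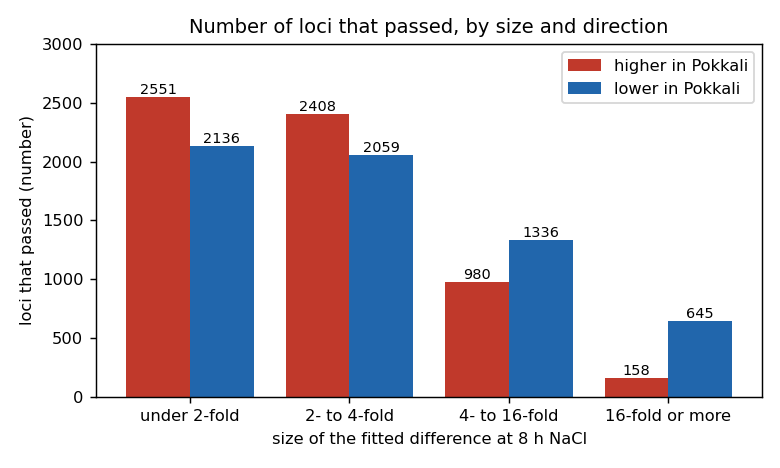
Number of loci that passed between Pokkali and Nipponbare at 8 h NaCl (vertical axis), by the size of the fitted difference (horizontal axis) and its direction (red higher and blue lower in Pokkali). Below 4-fold the higher loci outnumber the lower ones, 2551 against 2136 and 2408 against 2059, and above 16-fold the lower ones are in the majority, 645 against 158.

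Many loci were lit in one line only. In Pokkali 1008 loci were well above background on both arrays while neither Nipponbare array showed them, and the reverse held for 917 loci. They entered the test only through the line where they were high, so these counts and the p-values of such loci are a description. For such loci the dark line has only an upper limit, so a fold is given as "at least", taking as floor the dimmest probe still well above background on that array. A p-value printed beside such a bound belongs to the fitted difference, which uses the values below background, and does not test the bound. LOC_Os11g14544, with levels of 5.57 and 5.61 in Nipponbare, was at least 2909-fold lower in Pokkali (adjusted p = 0.000127), and LOC_Os06g24990, with levels of 5.47 and 5.65 in Pokkali, was at least 2697-fold higher (adjusted p = 0.000129). Among loci well above background on all 4 arrays LOC_Os11g11694 differed most in the direction of Pokkali, at -5.76 and -5.30 in Nipponbare and 2.82 and 3.17 in Pokkali (difference 8.52, SE 0.23, adjusted p = 0.000189). LOC_Os06g38210 differed most in the other direction, at 5.80 and 5.98 in Nipponbare and -4.54 and -4.87 in Pokkali (difference -10.60, SE 0.18, adjusted p = 0.000107). None of these 4 loci carries a gene name in the sources used here.

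By direction and median size, most of the line difference was present before the salt, although most loci called at 8 h did not pass at 0 h. Of the higher loci with a value at 0 h, 91.7% also lay above 0 in the 0 h comparison, and of the lower loci 95.0% lay below 0. The median difference of the higher loci was 1.12 at 8 h and 0.72 at 0 h, and that of the lower loci -1.32 and -1.09. Over 44020 loci the line differences at 0 h and 8 h, which share no array but share probes and lines, correlated at r = 0.85. At 0 h 3960 loci passed (9.00%), a count that fell to between 1895 and 2052 when 1 of the 0 h arrays was left out. In the direction of their 8 h call 1004 of the higher (16.5%) and 2315 of the lower loci (37.5%) passed at 0 h, and 11 and 10 passed against it. The difference between the 2 line differences passed at 147 loci (0.334%), of which 52 were higher, 79 lower and 16 uncalled at 8 h. That count depended on single arrays: it was 2 without Nipponbare 8 h replicate 1, 3 without replicate 2, 0 without Pokkali 8 h replicate 1 (4230 loci at an unadjusted p under 0.05) and 1 without replicate 2. It was 84 and 32 without Nipponbare 0 h replicates 1 and 2, and 174 and 33 without Pokkali 0 h replicates 1 and 2. Replicates of the same number deviated together in both lines at 0 h (r = 0.55 over loci), although the labels do not say that a number marks a shared day or batch. With the replicate number within each time as a block, an alternative chosen after seeing the data, the 0 h count was 6802 and the line difference changed at 1 locus (8117 at an unadjusted p under 0.05).

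**Figure D2:**
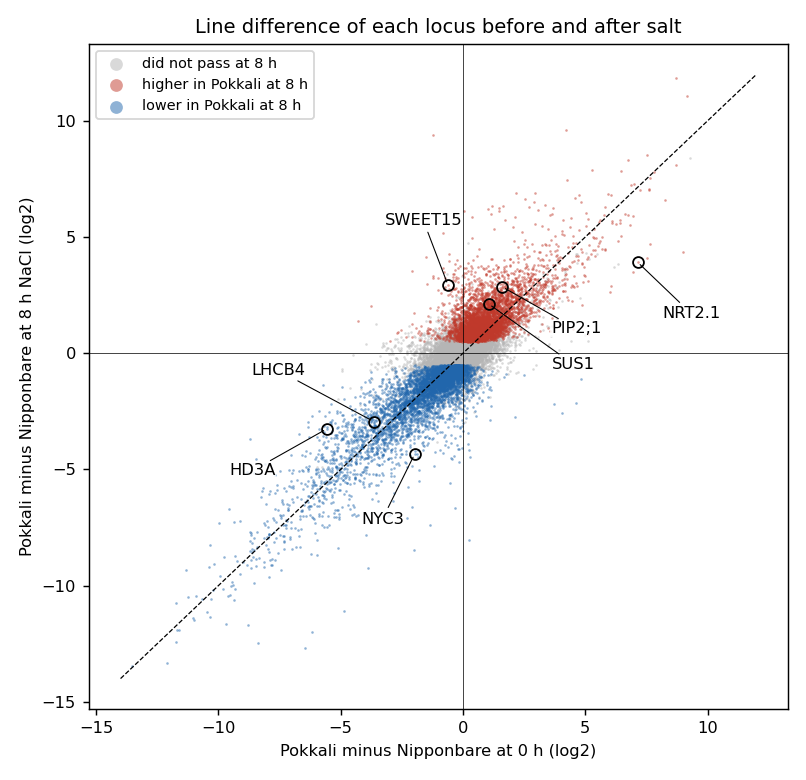
Difference between the lines at 0 h (horizontal axis, log2) and at 8 h NaCl (vertical axis, log2), 1 point per locus, red where Pokkali was higher at 8 h, blue where it was lower and grey where the locus did not pass. The cloud follows the dashed line of equal differences (r = 0.85), and the circled SWEET15 lies off it, with a difference of 2.92 at 8 h and -0.61 at 0 h.

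Sugar export and sucrose breakdown held some of the clearest differences. SWEET15 (LOC_Os02g30910), a sucrose exporter of the SWEET family, stood at 2.60 and 3.14 on the Nipponbare arrays and 5.71 and 5.87 on the Pokkali arrays at 8 h, a 7.56-fold difference (log2 2.92, SE 0.22, adjusted p = 0.00196; 0.00028 to 0.0128 over the 17 alternatives). At 0 h it had been low in both lines, -2.17 and -1.88 in Nipponbare and -2.66 and -2.62 in Pokkali. It is the 1 locus of all the lists whose line difference passed as unlike that at 0 h, by 3.53 (SE 0.31, adjusted p = 0.0281). That test did not pass without Nipponbare 0 h replicate 2 (0.0637), Pokkali 0 h replicate 2 (0.0621), Nipponbare 8 h replicate 1 (0.0709) or 2 (0.0632), or Pokkali 8 h replicate 1 (0.099) or 2 (0.149), with values of 3.27 to 3.80, nor with the replicate number within each time as a block (0.0698).

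SUS1 (LOC_Os03g28330), a sucrose synthase that cleaves sucrose, was at -1.34 and -1.60 in Nipponbare and 0.88 and 0.42 in Pokkali (4.33-fold higher, SE 0.22 log2 units, adjusted p = 0.00429; 0.00095 to 0.0153 over the alternatives). Its level at 0 h had been 0.88 and 0.79 in Nipponbare and 1.75 and 2.02 in Pokkali, so it was lower at 8 h than at 0 h on every array. SWEET14 (LOC_Os11g31190), another sucrose exporter, was at -0.68 and -0.99 against 0.87 and 0.81 (3.19-fold, adjusted p = 0.00392; 0.000935 to 0.0227). Of the 13 measured sugar loci 4 were higher and 1 lower, beside 13.8% and 14.0% of all loci, with a median of 0.55 beside 0.09 over all loci. The 2 small calls, SWEET12 (LOC_Os03g22590) at 0.64 (adjusted p = 0.045; 0.034 to 0.168) and SWEET5 (LOC_Os05g51090) at -0.69 (0.046; 0.0297 to 0.175), ended whichever of the 4 arrays was left out.

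Among the water channels of the plasma membrane PIP2;1 and PIP2;4 stood on opposite sides. PIP2;1 (LOC_Os07g26690), an aquaporin that conducts water, stood at 3.57 and 3.60 in Nipponbare and 6.46 and 6.41 in Pokkali, 7.22-fold higher (log2 2.85, SE 0.13, adjusted p = 0.00052; 7.3e-05 to 0.00466 over the alternatives), with 2.84 and 2.86 at its 2 probes. It was higher at 0 h too, at 5.01 and 5.34 against 6.71 and 6.84 (difference 1.60, adjusted p = 0.0228). From 0 h to 8 h its mean was lower by more in Nipponbare than in Pokkali, but the change in the line difference, 1.25, did not pass (adjusted p = 0.12). PIP2;4 (LOC_Os07g26630), a close relative, went the other way, at -3.87 and -4.04 in Nipponbare and -6.00 and -5.29 in Pokkali (difference -1.69, SE 0.27, adjusted p = 0.0144; 0.00942 to 0.046), with 1 of the Pokkali arrays not well above background. Its line difference at 0 h was -2.52 (adjusted p = 0.0439).

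Of 15 aquaporins 4 were higher and 1 lower, beside 13.8% and 14.0% of all loci, with a median of 0.43. The remaining calls were smaller. PIP1;3 (LOC_Os02g57720) was 2.52-fold higher (adjusted p = 0.0224; 0.0146 to 0.0886) and did not pass without Nipponbare replicate 2 (0.0508), Pokkali replicate 1 (0.0544) or Pokkali replicate 2 (0.0886). PIP2;5 (LOC_Os07g26660) at 0.96 (0.0492; 0.0251 to 0.148) did not pass without either Nipponbare array or Pokkali replicate 1, and PIP1;1 (LOC_Os02g44630) at 0.63 (0.0297; 0.0135 to 0.129) whichever array was left out.

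Sodium transport, the trait Pokkali is best known for, differed at 2 of 9 measured loci, beside 27.8% of all loci. HKT1;1 (LOC_Os04g51820), a sodium transporter that limits sodium in leaf blades, was at -2.95 and -2.70 in Nipponbare and -1.61 and -1.52 in Pokkali (2.39-fold higher, SE 0.15 log2 units, adjusted p = 0.00666), with 1.07 and 1.45 at its 2 probes. It held with each array left out and did not pass when the 4 arrays at 0 h shared the estimate of spread (0.174; 0.00346 to 0.174 over the alternatives), except with the replicate number within each time as a block (0.0134); its 0 h levels were -3.27 and -1.58 in Nipponbare and -2.68 and -1.61 in Pokkali. NHX3 (LOC_Os11g42790), a vacuolar sodium/proton antiporter, was lower in Pokkali at 2.82 and 3.18, against 4.02 and 4.25 in Nipponbare (difference -1.14, SE 0.19, adjusted p = 0.0157; 0.00576 to 0.0609). At 0 h the lines overlapped for it, at 1.70 and 1.17 in Nipponbare and 1.65 and 1.27 in Pokkali, and the change in the line difference was -1.16 (adjusted p = 0.306). The NHX3 call ended without Nipponbare replicate 2 (0.0609) or Pokkali replicate 1 (0.0512).

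The other sodium genes did not pass. NHX1 (LOC_Os07g47100), the main vacuolar antiporter, was at 2.97 and 3.59 in Nipponbare and 3.96 and 4.29 in Pokkali (difference 0.85, SE 0.27, adjusted p = 0.0794; 0.0275 to 0.243), so that all values of Pokkali lay above those of Nipponbare. It passed without Nipponbare replicate 2 (0.0423), under normexp background correction (0.0413) and with the replicate block (0.0275). SOS1 (LOC_Os12g44360), the plasma membrane sodium exporter, differed by 0.13 (SE 0.17), and the kinase CIPK24 (LOC_Os06g40370) and its calcium sensor CBL4 (LOC_Os05g45810), which switch it on, by 0.39 and 0.21. NHX2 (LOC_Os05g05590) was at 0.35, the sodium channel HKT1;3 (LOC_Os02g07830) at -0.04 and the root sodium importer HKT2;1 (LOC_Os06g48810) at -0.04. HKT1;5 (LOC_Os01g20160), the xylem sodium transporter at the salt tolerance locus Saltol of Pokkali, and HKT1;4 (LOC_Os04g51830) were not well above background on any of the 4 arrays and have no level here.

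Potassium carriers and proton pumps showed 1 call in each direction among 13 loci, beside 27.8% of all loci called. OVP1 (LOC_Os06g43660), a vacuolar proton pyrophosphatase that powers ion storage, was at 6.40 and 6.62 in Nipponbare and 7.36 and 7.49 in Pokkali (1.89-fold higher, adjusted p = 0.0155; 0.00454 to 0.0827). HAK21 (LOC_Os03g37930), a potassium transporter, was lower in Pokkali, at -2.78 and -2.70 against -1.85 and -1.45 (difference -1.09, adjusted p = 0.0163; 0.00822 to 0.258). The OVP1 call ended without Nipponbare replicate 1 (0.0715) or Pokkali replicate 2 (0.067), and the HAK21 call without Nipponbare replicate 2 (0.0537), Pokkali replicate 1 (0.0645) or Pokkali replicate 2 (0.0596). With the 0 h arrays in the fit the adjusted p was 0.0827 for OVP1 and 0.258 for HAK21, and 0.0252 and 0.0165 when the replicate number within each time was a block too.

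Carbon fixation was the list that stood highest in Pokkali after salt. Of 8 Calvin cycle loci 5 were higher and none lower, beside 13.8% and 14.0% of all loci, all 8 lay above 0, and their median was 0.92 beside 0.09 over all loci. At 0 h the median of the same 8 was 0.20 and none passed. RBCS4 (LOC_Os12g19470), a small subunit of Rubisco, the enzyme that fixes carbon dioxide, was at 0.04 and -0.82 in Nipponbare and 1.99 and 1.80 in Pokkali (4.85-fold, SE 0.32 log2 units, adjusted p = 0.00957; 0.00358 to 0.0433 over the alternatives). Before salt the lines overlapped for it, at 3.08 and 4.09 in Nipponbare and 2.98 and 4.59 in Pokkali. RCA (LOC_Os11g47970), Rubisco activase, was at 5.30 and 5.73 against 6.51 and 6.90 at 8 h (2.28-fold, adjusted p = 0.0234; 0.0104 to 0.0842), down from 8.45 and 8.78 in Nipponbare and 8.63 and 9.17 in Pokkali at 0 h. GAPA (LOC_Os04g38600), a chloroplast glyceraldehyde-3-phosphate dehydrogenase, was 2.49-fold higher (adjusted p = 0.0275; 0.00967 to 0.0916) and RBCS2 (LOC_Os12g17600) 2.86-fold higher (0.0419; 0.0099 to 0.117). No change in the line difference passed for these genes (adjusted p = 0.471 for RBCS4 and 0.492 for RCA).

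Most of these calls ended in some fit with 1 array left out, which has fewer arrays to estimate the spread. The differences kept their direction, at 0.97 to 1.41 for RCA, 1.03 to 1.61 for GAPA and 1.08 to 1.95 for RBCS2 over the alternatives. RCA did not pass without Nipponbare replicate 1 (0.0726) or Pokkali replicate 2 (0.0842), GAPA without Nipponbare replicate 2 (0.0704), Pokkali replicate 1 (0.0916) or 2 (0.0513), and RBCS2 without Nipponbare replicate 1 (0.0505) or 2 (0.117) or Pokkali replicate 1 (0.0907). The small subunit genes are near copies of each other, and a probe may read more than 1 of them.

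Among light harvesting and photosystem genes calls were few, with 2 higher and 1 lower of 20, beside 13.8% and 14.0% of all loci, and a median of 0.34. PSBS (LOC_Os01g64960), the photosystem II protein that lets leaves shed excess light as heat, was at -1.42 and -1.50 in Nipponbare and 0.63 and 1.77 in Pokkali (6.31-fold, SE 0.40 log2 units, adjusted p = 0.0118; 0.00383 to 0.0368). LHCA1 (LOC_Os06g21590), an antenna protein of photosystem I, was 2.07-fold higher (adjusted p = 0.0406; 0.0174 to 0.131) and lost its call without Nipponbare replicate 2 (0.106), Pokkali replicate 1 (0.131) or Pokkali replicate 2 (0.0836). LHCB4 (LOC_Os07g37240), the minor antenna protein CP29 of photosystem II, was far lower in Pokkali at both times. At 8 h it stood at 3.78 and 3.44 in Nipponbare and 0.54 and 0.78 in Pokkali (difference -2.95, SE 0.19, adjusted p = 0.0012; 0.000332 to 0.00764), and at 0 h at 6.40 and 6.34 in Nipponbare and 2.36 and 3.10 in Pokkali (difference -3.64, adjusted p = 0.00894). It is read by 1 probe.

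Chlorophyll synthesis and breakdown held the largest difference among list genes well above background in both lines. NYC3 (LOC_Os06g24730), a plastid hydrolase needed to degrade chlorophyll in ageing leaves, stood at -0.22 and 0.18 in Nipponbare and -4.66 and -4.05 in Pokkali after salt, a 20.2-fold lower level (log2 -4.34, SE 0.27, adjusted p = 0.00118; 0.000148 to 0.00475 over the alternatives). Its 0 h levels were -3.23 and -2.84 in Nipponbare and -5.15 and -4.86 in Pokkali (difference -1.98, adjusted p = 0.0197), so Nipponbare stood higher at 8 h than at 0 h on both arrays. The change in the line difference, -2.36, had an adjusted p of 0.094. CRD1 (LOC_Os01g17170), a cyclase of chlorophyll synthesis, was the reverse, at -1.56 and -1.16 in Nipponbare and 0.54 and 0.65 in Pokkali (3.88-fold higher, SE 0.19 log2 units, adjusted p = 0.00361; 0.000756 to 0.021), with 1.94 and 1.97 at its 2 probes.

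The 3 other calls of that list were also higher in Pokkali, which made 4 higher and 1 lower of 16, beside 13.8% and 14.0% of all loci, with a median of 0.17. They were PAO (LOC_Os03g05310), which opens the chlorophyll ring during breakdown, at 1.00 (adjusted p = 0.0407; 0.0147 to 0.133), GUN4 (LOC_Os11g16550), an activator of magnesium chelatase, at 0.80 (0.0286; 0.0146 to 0.11), and HEMA1 (LOC_Os10g35840), the first enzyme of the pathway, at 0.68 (0.0389; 0.0153 to 0.164). HEMA1 did not pass whichever array was left out, PAO without either Nipponbare array (0.133 and 0.0561) or Pokkali replicate 2 (0.123), and GUN4 without either Nipponbare array (0.0885 and 0.11) or Pokkali replicate 1 (0.0868). GUN4 differed at 0 h as well, by 1.08 (adjusted p = 0.0334).

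**Figure D3:**
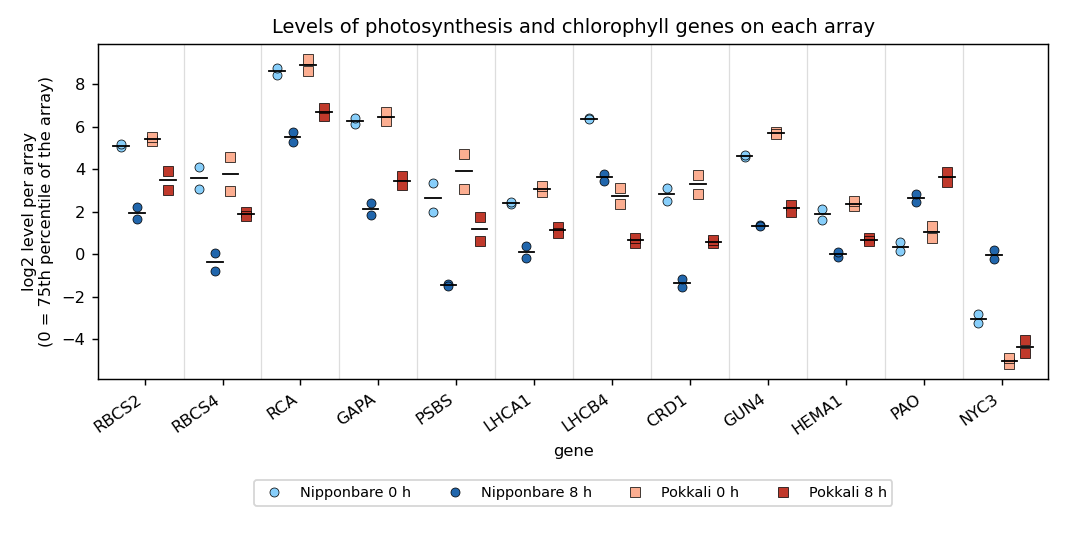
Level of 12 photosynthesis and chlorophyll genes on each of the 8 arrays (vertical axis, log2 intensity with 0 at the array's 75th percentile), circles for Nipponbare and squares for Pokkali, pale at 0 h and dark at 8 h NaCl, with a bar at the mean of 2 arrays. After salt the dark squares lie above the dark circles for RBCS4 (1.99 and 1.80 against 0.04 and -0.82) and CRD1, and far below them for LHCB4 and NYC3 (-4.66 and -4.05 against -0.22 and 0.18).

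Leaf and root markers are only a rough guide to tissue. Their summed levels were themselves far lower at 8 h than at 0 h in both lines. All 7 leaf markers were well above background on all 4 arrays at 8 h, and 3 of them, all Rubisco small subunits, were higher in Pokkali. The summed linear level of the 7, in multiples of the 75th percentile, was 439 and 350 in Nipponbare and 393 and 317 in Pokkali, so the groups overlapped. At 0 h the sum had been 794 and 870 in Nipponbare and 777 and 888 in Pokkali. Of 6 root markers 4 were measured and 2 were higher, RCC3 and NRT2.1, the latter not well above background in Nipponbare. LSI1 and LSI2 did not pass. NRT2.2, the near copy of NRT2.1, is not a marker here and was lower in Pokkali. The RCC3 call did not hold with the 0 h arrays in the fit (limma adjusted p = 0.15), but did with the replicate number within each time as a block (0.0335). The summed level of the 4 was 0.890 and 0.937 in Nipponbare and 1.70 and 1.50 in Pokkali, without overlap. At 0 h it had been 9.49 and 20.2 against 10.4 and 14.6. IRT1 and YSL15 were not well above background at 8 h. The part of root tissue in the differences of root genes was not tested. The 2 measured markers of dividing tissue did not pass.

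The probe signals of the nitrate transporter loci NRT2.1 and NRT2.2 were mirrored between the lines. NRT2.1 (LOC_Os02g02170) and its neighbour NRT2.2 (LOC_Os02g02190) are high-affinity nitrate transporters of roots and near-identical copies. NRT2.1 was not well above background in Nipponbare (-8.17 and -7.70) and stood at -3.35 and -4.69 in Pokkali, at least 3.52-fold higher (adjusted p = 0.00703; 0.00443 to 0.0276 over the alternatives). NRT2.2 stood at -4.12 and -4.38 in Nipponbare and was not well above background in Pokkali (-8.14 and -8.04), at least 3.17-fold lower (adjusted p = 0.000431; 0.000382 to 0.00796). The same pattern was present at 0 h, at -8.17 and -8.31 against 0.38 and -2.59 for NRT2.1 and -0.67 and -1.62 against -6.94 and -6.71 for NRT2.2. Each is read by 1 probe, and with copies this alike the split of signal between the 2 loci is uncertain. A line difference in the joint level of the pair was not tested, and nitrate uptake was not measured. Each entered the test only through the line where it was high, so the p-values describe the fitted differences and not the bounds.

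The 3 further nitrogen calls were all higher in Pokkali, which made 4 higher and 1 lower of 13, beside 13.8% and 14.0% of all loci, with a median of 0.21. AMT1;3 (LOC_Os02g40730), an ammonium transporter, was at -3.89 and -3.95 in Nipponbare and -2.68 and -2.49 in Pokkali (2.52-fold, SE 0.14 log2 units, adjusted p = 0.00477; 0.00355 to 0.0248). NRT1.1B (LOC_Os10g40600), a nitrate transporter and sensor with distinct indica and japonica alleles, was at 0.62 and 0.49 against 1.89 and 1.59 (2.27-fold, adjusted p = 0.00979; 0.00363 to 0.0429). NRT2.3 (LOC_Os01g50820) was 3.01-fold higher (adjusted p = 0.0162; 0.00835 to 0.0671) and did not pass without Pokkali replicate 2 (0.0671). Iron and root genes gave 2 higher and none lower of 13, beside 13.8% and 14.0% of all loci, with a median of 0.39. YSL2 (LOC_Os02g43370), which moves iron bound to nicotianamine, was at -5.43 and -5.12 in Nipponbare and -2.95 and -3.23 in Pokkali (4.54-fold, adjusted p = 0.00267; 0.00192 to 0.193), and the root transcript RCC3 (LOC_Os02g44310) was 2-fold higher (0.0267; 0.0116 to 0.15). RCC3 did not pass without Nipponbare replicate 1 (0.0964) or Pokkali replicate 1 (0.0851), and neither passed with the 0 h arrays in the fit (0.193 for YSL2 and 0.15 for RCC3). With the replicate number within each time as a block in that fit the values were 0.167 and 0.0335.

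**Figure D4:**
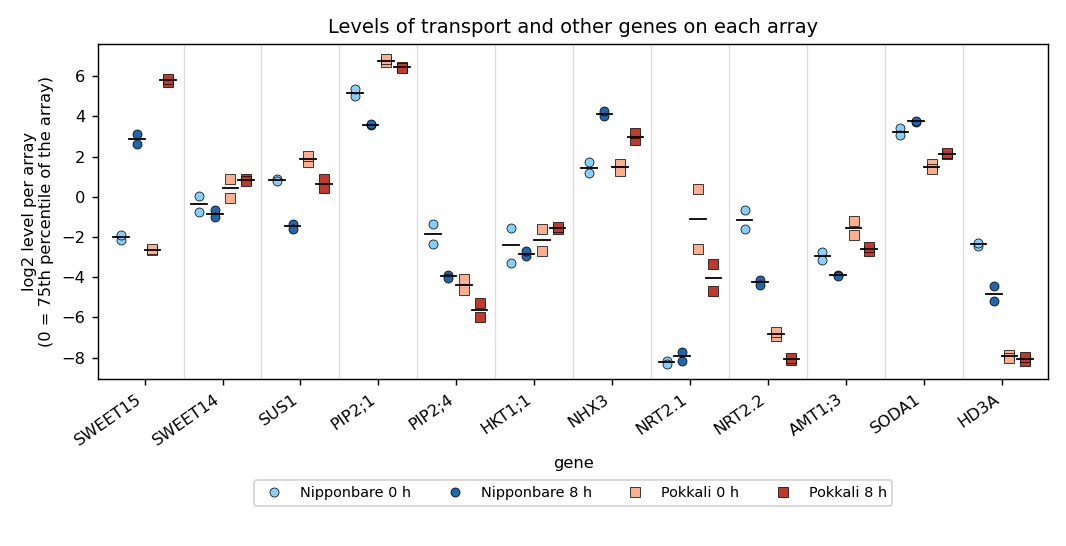
Level of 12 transport and other genes on each of the 8 arrays (vertical axis, log2 intensity with 0 at the array's 75th percentile), circles for Nipponbare and squares for Pokkali, pale at 0 h and dark at 8 h NaCl, with a bar at the mean of 2 arrays. SWEET15 stands at 5.71 and 5.87 in Pokkali against 2.60 and 3.14 in Nipponbare after salt and at low levels in both lines at 0 h, and NRT2.1 and NRT2.2 each stand near the bottom of the scale in one line at both times.

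Dehydrins and other late embryogenesis abundant (LEA) proteins, which protect drying cells, mostly did not pass. Of 8 loci 2 were higher and none lower, beside 13.8% and 14.0% of all loci, with a median of 0.26. RAB16D, counted among the 2, entered the test only through Pokkali, so its call and p-values are a description. WSI18 (LOC_Os01g50910) was at 3.81 and 3.73 in Nipponbare and 4.62 and 4.46 in Pokkali (1.71-fold, adjusted p = 0.0195; 0.00957 to 0.0911), after 0.72 and 0.69 in Nipponbare and 2.45 and 1.97 in Pokkali at 0 h. RAB16D (LOC_Os11g26750) was not well above background in Nipponbare and at -5.01 and -4.88 in Pokkali, at least 1.85-fold higher (adjusted p = 0.0213; 0.00554 to 0.0839). The WSI18 call ended whichever array was left out, and that of RAB16D without either Pokkali array (0.0681 and 0.0839). LEA3 (LOC_Os05g46480) had the widest gap, 4.07 and 5.47 against 6.30 and 6.88, but its replicates were also far apart and it did not pass (difference 1.82, SE 0.52, adjusted p = 0.062; 0.011 to 0.198). It passed without Nipponbare replicate 2 (0.011) and, with all 4 arrays, under normexp background correction (0.0362), an intensity trend (0.042) and the replicate block (0.0185).

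The other members did not pass. RAB16A (LOC_Os11g26790) differed by 0.04 (SE 0.14), RAB16B (LOC_Os11g26780) by -0.08 (SE 0.26) and RAB16C (LOC_Os11g26760) by -0.16 (SE 0.33). DHN1 (LOC_Os02g44870) was at 0.23 and EM1 (LOC_Os05g28210) at 0.29. SALT (LOC_Os01g24710), a mannose-binding lectin named for its salt response, was lower on both Pokkali arrays, at -2.82 and -2.29 against -1.95 and -1.53, and did not pass (difference -0.81, SE 0.25, adjusted p = 0.0776; 0.0217 to 0.237), though it passed with no scaling (0.0338) and with the replicate block (0.0217). ASR5 (LOC_Os11g06720), a small stress and ripening protein, was at 0.42 (adjusted p = 0.0718; 0.031 to 0.263) and passed under normexp background correction. None of the 3 lectin and ASR loci passed by limma, and 2 had an unadjusted p under 0.05.

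Abscisic acid is the hormone that drives much of this response. Of its 6 metabolism loci 3 were higher in Pokkali and none lower, beside 13.8% and 14.0% of all loci, with a median of 0.65, and none of the 3 calls held with each array left out. NCED3 (LOC_Os03g44380), which makes the hormone's precursor, was at 3.96 and 4.12 in Nipponbare and 5.02 and 4.72 in Pokkali (1.78-fold, adjusted p = 0.0274; 0.0141 to 0.361). NCED5 (LOC_Os12g42280), of the same family, was 1.7-fold higher (0.0209; 0.007 to 0.101) and ABA8OX3 (LOC_Os09g28390), which inactivates the hormone, 1.64-fold higher (0.0281; 0.0185 to 0.66). The NCED3 call ended without either Nipponbare array (0.111 and 0.0721) or Pokkali replicate 1 (0.0868), and the NCED5 and ABA8OX3 calls whichever array was left out. At 0 h the median of the 6 was -0.11, with NCED3 at 0.64, NCED5 at 0.93 and ABA8OX3 at -1.03. Some 0 h replicates lay far apart, as for ABA8OX1 at -3.53 and -0.53 in Nipponbare. The change in the line difference passed for none of the 6 (limma adjusted p = 0.976 for NCED3, 0.922 for NCED5 and 0.798 for ABA8OX3).

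Signalling downstream of the hormone was mixed, with 2 higher and 3 lower of 23 loci, beside 13.8% and 14.0% of all loci. TRAB1 (LOC_Os08g36790), a bZIP factor that binds abscisic acid response elements, was at -2.21 and -1.74 in Nipponbare and -3.81 and -3.48 in Pokkali (difference -1.67, SE 0.23, adjusted p = 0.00912; 0.00435 to 0.0382), close to its difference of -1.78 at 0 h (adjusted p = 0.0615). Kinases of the SAPK family, which relay osmotic stress, stood on both sides: SAPK1 (LOC_Os03g27280) was lower at -0.93 (adjusted p = 0.0182; 0.00571 to 0.0768) and SAPK8 (LOC_Os03g55600) at -0.74 (0.0349; 0.0118 to 0.12). Another, SAPK7 (LOC_Os04g35240), was higher at 0.64 (0.0346; 0.0125 to 0.139), as was PP2C30 (LOC_Os03g16170), a phosphatase that restrains the pathway, at 0.93 (0.0297; 0.0142 to 0.446). SAPK7 did not pass whichever array was left out, SAPK1 without Nipponbare replicate 2 (0.0768) or either Pokkali array (0.0711 and 0.0552), SAPK8 without either Nipponbare array (0.117 and 0.12) or Pokkali replicate 1 (0.102), and PP2C30 without either Nipponbare array (0.11 and 0.0538) or Pokkali replicate 2 (0.0995).

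Among 20 stress transcription factors 4 were higher and 1 lower, beside 13.8% and 14.0% of all loci. WRKY45 (LOC_Os05g25770), a defence regulator, was at -4.15 and -3.77 in Nipponbare and -2.47 and -2.35 in Pokkali (2.93-fold, SE 0.18 log2 units, adjusted p = 0.00608; 0.00379 to 0.253), and WRKY71 (LOC_Os02g08440) was 2.15-fold higher (adjusted p = 0.00989; 0.00504 to 0.341). DREB1C (LOC_Os06g03670), of the cold and drought responsive DREB1 group, was lower, at -0.27 and -0.46 against 0.94 and 0.81 (difference -1.24, SE 0.15, adjusted p = 0.00625; 0.00178 to 0.408). These 3 passed with each array left out and did not pass with the 0 h arrays in the fit, at 0.253, 0.341 and 0.408, but did with the replicate number within each time as a block in that fit (0.0221, 0.0132 and 0.0319). The 0 h replicates of these genes lay far apart, for WRKY45 at -3.87 and -1.25 in Nipponbare and -2.23 and -0.68 in Pokkali. DREB1B (LOC_Os09g35010) at 0.83 (adjusted p = 0.0206; 0.00931 to 0.659) did not pass whichever array was left out, and WRKY76 (LOC_Os09g25060) at 1.43 (0.0385; 0.012 to 0.362) not without Nipponbare replicate 1 (0.0582) or either Pokkali array (0.125 and 0.0927). With the replicate number as a block WRKY76 was at an adjusted p of 0.0533.

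Jasmonate repressors of the TIFY family stood on both sides. TIFY11C (LOC_Os03g08320) was lower in Pokkali, at -4.09 and -3.43 against -2.32 and -1.39 (difference -1.91, SE 0.40, adjusted p = 0.0285; 0.00613 to 0.273), whereas TIFY11B (LOC_Os03g08330) was at 0.65 (0.0454; 0.0345 to 0.72) and TIFY10C (LOC_Os09g26780) at 0.77 (0.0352; 0.0199 to 0.513). That made 2 higher and 1 lower of 11, beside 13.8% and 14.0% of all loci. TIFY11C did not pass without Nipponbare replicate 2 (0.053) or either Pokkali array (0.093 and 0.0501), and TIFY11B and TIFY10C whichever array was left out. With the replicate block the adjusted p was 0.051 for TIFY11B and 0.0521 for TIFY10C. Of 9 defence loci JIOSPR10 (LOC_Os03g18850), a defence protein named for its induction by jasmonate, was lower in Pokkali. It stood at -0.86 and -1.48 in Pokkali and 0.26 and 0.43 in Nipponbare (difference -1.51, SE 0.25, adjusted p = 0.0149, 0.00558 to 0.0497 over the alternatives). The difference at 0 h was about as large (-1.48, adjusted p = 0.0479).

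Of 12 antioxidant loci 4 were lower in Pokkali and none higher, beside 14.0% and 13.8% of all loci, while 7 lay above 0 and the median was 0.15. SODA1 (LOC_Os05g25850), the manganese superoxide dismutase of mitochondria, was at 3.72 and 3.78 in Nipponbare and 2.1 and 2.2 in Pokkali (difference -1.60, SE 0.13, adjusted p = 0.00237; 0.000391 to 0.0144), and -1.73 at 0 h (adjusted p = 0.0221). CATA (LOC_Os02g02400), a catalase, was at -2.68 and -3.07 against -4.12 and -4.30 (difference -1.34, adjusted p = 0.01; 0.00748 to 0.298). The ascorbate peroxidases APX2 (LOC_Os07g49400) and APX4 (LOC_Os08g43560) were at -1.0 (adjusted p = 0.019; 0.00951 to 0.375) and -0.80 (0.0216; 0.0175 to 0.0959). APX2 did not pass without either Nipponbare array (0.0569 and 0.074) or Pokkali replicate 1 (0.0564), APX4 not without either Nipponbare array (0.0959 and 0.0731) or Pokkali replicate 2 (0.0829), and CATA not with the 0 h arrays in the fit (0.298, or 0.0128 with the replicate number within each time as a block). Of 4 measured heat shock loci HSFA2A (LOC_Os03g53340), a heat stress factor, was 2.14-fold higher (0.0214; 0.00721 to 0.45), which did not hold without Nipponbare replicate 1 (0.062) or either Pokkali array (0.0621 and 0.0863).

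Of 10 osmoprotectant loci 2 were higher and none lower, beside 13.8% and 14.0% of all loci, with a median of 0.13. Both ends of proline turnover were higher in Pokkali. PRODH (LOC_Os10g40360), which degrades proline, was at 1.00 and 1.33 in Nipponbare and 2.31 and 2.40 in Pokkali (2.28-fold, adjusted p = 0.0105; 0.00313 to 0.0922), and P5CS1 (LOC_Os05g38150), which makes it, at -1.60 and -1.49 in Nipponbare and -0.63 and -0.74 in Pokkali (1.82-fold, adjusted p = 0.0137; 0.00373 to 0.0707). PRODH was at 0.0922 with the 0 h arrays in the fit and at 0.0352 when the replicate number within each time was a block too, and P5CS1 did not pass without either Nipponbare array (0.0707 and 0.0517) or Pokkali replicate 1 (0.0577).

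Growth hormones held 8 higher and 1 lower of 18 measured loci, beside 13.8% and 14.0% of all loci, with a median of 0.36 at 8 h and 0.44 at 0 h. Of the higher calls, ACS2 (limma adjusted p = 0.435), RR9 (0.266) and GA3OX2 (0.146) did not hold with the 0 h arrays in the fit. With the replicate number within each time as a block too, RR9 passed (0.00632), and ACS2 (0.385) and GA3OX2 (0.0868) did not. The RR6 call ended with no scaling (0.0506). GA2OX3 (LOC_Os01g55240), which inactivates gibberellin, was at -1.79 and -1.24 in Nipponbare and 0.45 and 0.84 in Pokkali (4.47-fold, SE 0.26 log2 units, adjusted p = 0.00619; 0.00191 to 0.0282). SD1 (LOC_Os01g66100), a gibberellin-making oxidase whose loss gave semi-dwarf rice, was at 1.27 and 1.11 against 2.66 and 2.15 (2.32-fold, adjusted p = 0.0188; 0.00577 to 0.0661). Of ethylene synthesis, ACS1 (LOC_Os03g51740), the step that makes the precursor, was 4.02-fold higher at 1.17 and 1.52 against -1.07 and -0.26 (adjusted p = 0.0136; 0.0059 to 0.0593), and ACO1 (LOC_Os09g27820), the last step, was lower at 0.34 and 0.52 against 2.04 and 1.61 (difference -1.39, adjusted p = 0.0105; 0.00365 to 0.0462). ACO1 was lower at 0 h too (difference -1.74, adjusted p = 0.0131). RR4 (LOC_Os01g72330), a cytokinin response regulator, was 2.3-fold higher (0.0232; 0.00748 to 0.0845). ACS1 did not pass without Pokkali replicate 2 (0.0593), SD1 without Nipponbare replicate 2 (0.0661), and RR4 without Nipponbare replicate 1 (0.0529) or either Pokkali array (0.0845 and 0.0742).

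Among 16 cell wall and division loci 4 were higher in Pokkali and 1 lower, beside 13.8% and 14.0% of all loci. The 4 higher ones were expansins, proteins that let walls extend, and the lower one was a cellulose synthase. The expansins EXPA10, EXPB2 and EXPB4 did not pass. EXPA4 (LOC_Os05g39990) was at 0.71 and 0.21 in Nipponbare and 2.41 and 2.00 in Pokkali (3.35-fold, SE 0.25 log2 units, adjusted p = 0.0101; 0.00352 to 0.039), EXPA2 (LOC_Os01g60770) was 2.87-fold higher (0.0227; 0.00838 to 0.0706), EXPA1 (LOC_Os04g15840) 2.26-fold (0.0151; 0.00907 to 0.125) and EXPB3 (LOC_Os10g40720) 2.11-fold (0.0237; 0.0112 to 0.0812). CESA1 (LOC_Os05g08370), of the primary wall, was at -0.91 (adjusted p = 0.0106; 0.00831 to 0.0885). EXPA2 and EXPA1 did not pass without Nipponbare replicate 1 (0.0706 and 0.0547), EXPB3 without Nipponbare replicate 2 (0.0812) or Pokkali replicate 1 (0.0784), and CESA1 without Nipponbare replicate 2 (0.0566).

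Genes with well-known japonica and indica alleles gave 3 higher and 2 lower of 11 measured loci, beside 13.8% and 14.0% of all loci. HD3A and RC, counted there, entered the test only through the line where they were high, so their calls and p-values are a description. SD1 and NRT1.1B were among the higher. HD3A (LOC_Os06g06320), the mobile flowering signal of rice, was at -5.21 and -4.44 in Nipponbare and not well above background in Pokkali (-8.16 and -7.99), at least 2.13-fold lower (adjusted p = 0.00294; 0.000371 to 0.103). At 0 h the levels were -2.43 and -2.31 in Nipponbare and -7.88 and -8.0 in Pokkali. With another background correction its call ended (0.103). RC (LOC_Os07g11020), the regulator of red grain colour, was not well above background in Nipponbare and at -5.45 and -5.40 in Pokkali, at least 1.33-fold higher (0.0463; 0.0097 to 0.527), a call that ended without Nipponbare replicate 2 (0.0609), Pokkali replicate 1 (0.123) or 2 (0.143). HMA3 (LOC_Os07g12900), which stores cadmium in vacuoles, was at -0.93 (adjusted p = 0.0144; 0.00863 to 0.062) and did not pass without either Nipponbare array (0.0586 and 0.062) or Pokkali replicate 2 (0.0565).

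None of 9 measured clock loci passed by limma (3 at an unadjusted p under 0.05), with PRR73 (LOC_Os03g17570) at -0.64 (adjusted p = 0.0795; 0.0336 to 0.245) and PRR59 (LOC_Os11g05930) at 0.36 (0.112; 0.0533 to 0.415) nearest to it. PRR73 passed with no scaling (0.0336), under normexp background correction (0.0464) and with the replicate block (0.042). None of the 5 reference genes passed (0 at an unadjusted p under 0.05): ACT1 (LOC_Os03g50885) differed by 0.17, EEF1A (LOC_Os03g08010) by 0.16, UBQ5 (LOC_Os01g22490) by 0.46, UBQ10 (LOC_Os02g06640) by 0.10 and TUBA (LOC_Os03g51600) by 0.33, with SEs of 0.13, 0.17, 0.23, 0.19 and 0.17. Over all 24 lists 56 of 282 measured loci were higher and 21 lower, 27.3% in all, a share near that of the whole array. The other 15 list loci, HKT1;5 and HKT1;4 among them, had no kept probe. Of the 77 list calls 28 held with each of the 4 arrays left out and 42 with the 0 h arrays in the fit, or 67 when that fit had the replicate number within each time as a block. The share of loci passing ran from 24.7% on chromosome 3 to 32.9% on chromosome 11, with chromosome 12 next highest at 30.4%. Differences between chromosomes were not tested. Between HKT1;5 and SALT on chromosome 1, the stretch around Saltol by locus number, 36 of 275 loci were higher and 39 lower, 27.3%, against 27.5% on the rest of that chromosome.

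**Figure D5:**
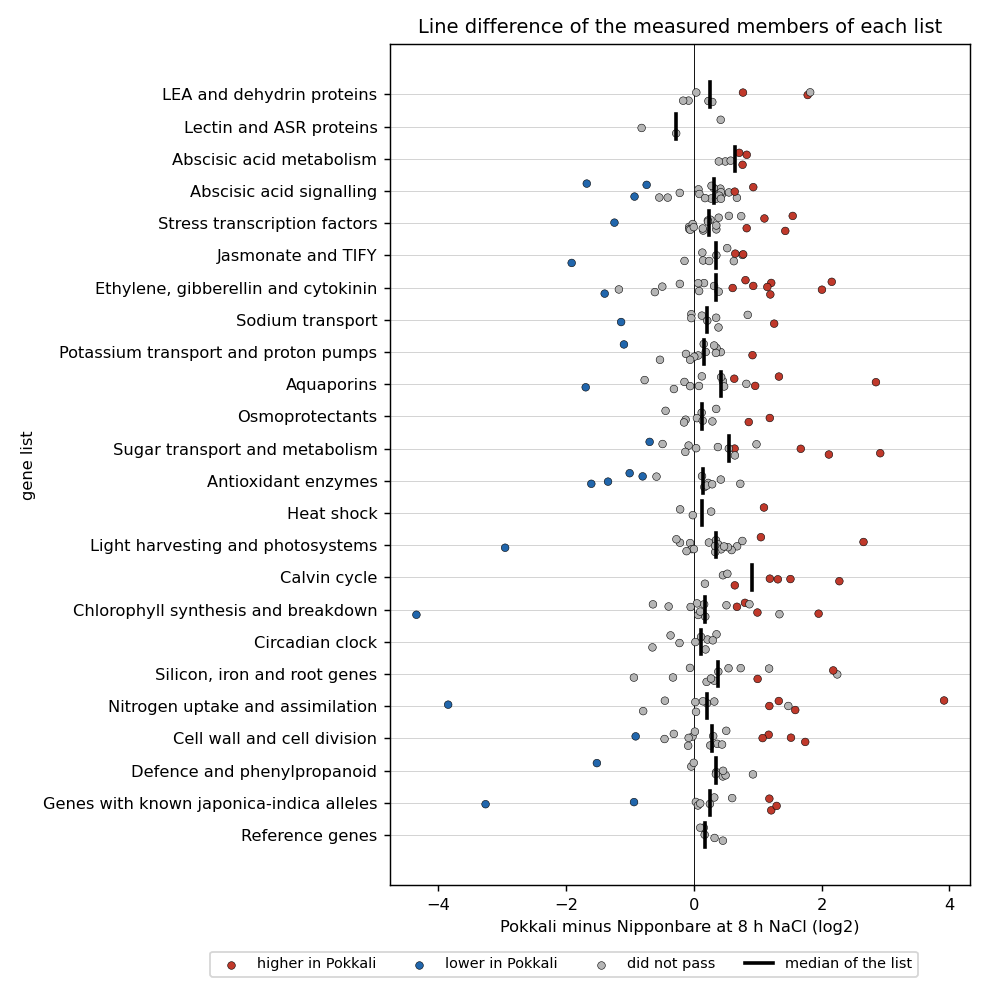
Difference between Pokkali and Nipponbare at 8 h NaCl (horizontal axis, log2) of the 282 measured loci of 24 gene lists (vertical axis), 1 point per locus, red where higher and blue where lower in Pokkali and grey where the locus did not pass; a black bar marks the list's median, and loci dark in one line are at their fitted value. The Calvin cycle has the highest median, 0.92, all 4 antioxidant calls lie below 0, and none of the clock or reference genes passed.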

How the data were processed

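RNA of whole seedlings was labelled with Cy3 and hybridised to a custom array, per the labels. The authors deposited scanner tables made with Feature Extraction 10.7.1.1, whose processed signal intensity was background-subtracted and detrended within each array but not scaled between arrays, per the file headers; the deposited series table held the same intensity (100% of values). Spot flags (control, outlier, saturated, above background) were used as deposited. Control spots (1319) and outlier-flagged spots were left out. The log2 intensity of 61657 spots was shifted to each array's 75th percentile, and spots were averaged by probe, then probes by locus. Of 55078 probes 46178 were kept, that is, those clearly above background in both replicates of either line at 8 h (8879 were dim and 21 flagged on some array; a repeated probe needed a share of its spots above 0.5). They stand for 44081 of 52795 loci.

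The 4 arrays at 8 h were fitted with limma 3.58.1 in R 4.3.3 (2 residual and 2.60 prior degrees of freedom); the 4 at 0 h and the change in the line difference (all 8 arrays) were fitted on 44020 loci. Groups of 2 allow no smaller exact permutation p than 0.333, so no single-gene test was made outside limma, and the number of arrays limits the precision. For a line with a locus dark on both arrays, a bound was set from the lowest signal well above background. One 8 h Nipponbare sample carries replicate 2 in its title and replicate 1 in its description; the title was used. Slide and scan blocks could not be fitted, since all arrays lay on 1 slide and 1 scan. The mean foreground signal is not used here, and the normexp alternative took the median signals. The 24 lists (301 entries, 297 loci), the rule for named genes (largest differences and bounds, up to 4 passing members per list and direction, the 2 smallest p where none passed, and all sodium, LEA and reference genes) and the 17 alternatives were chosen with earlier results of these data known. The RefSeq table (ASM3414082v1) held 0 of the array's locus identifiers.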

Additional observations from a re-analysis of the deposited data

Results flagged for a closer look

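At 2 named loci the test of the change in the line difference passed with all 8 arrays, and neither result held throughout when 1 array was left out. SWEET15 (LOC_Os02g30910) stood 2.92 log2 units higher in Pokkali at 8 h and at -0.61 at 0 h, a change of 3.53 (limma adjusted p = 0.0281; 0.0239 to 0.149 with quantile normalization or 1 array left out, and 0.0698 with the replicate number within each time as a block). LOC_Os11g14544, which was not well above background in Pokkali at 8 h, had a change of -4.11 (adjusted p = 0.0391; 0.0545 to 0.15 with 1 of the 8 arrays left out, so that the call ended each time, and 0.0698 with the block), from a difference of -8.38 at 0 h to -12.49 at 8 h. Its Pokkali level at 8 h has only an upper limit, so the size of the change is a fitted value. The p-value rests on values below background too, and the locus was named for its large bound at 8 h.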

How the results depend on the processing

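Of the 77 list loci that passed, 20 passed under all 17 alternatives that gave them a value (6 loci dark on an array had none with probes above background on all 4 arrays), and none of the 72 named in the text changed its direction. With 1 of the 4 arrays left out the number of loci that passed ranged from 7617 to 8391, against 12273, those higher in Pokkali from 3517 to 3924 and those lower from 4061 to 4467, and 40 to 43 of the 77 list calls held. In such fits the lone array is assumed to vary like the other line. The 0 h count ranged from 1895 to 2052 (3960 with all arrays) and the count for the change in the line difference from 0 to 174 (147 with all). With all 4 arrays kept, the number of loci that passed at 8 h stayed within 1.5 times of 12273 under 13 alternatives, from 9651 with no filter on dim probes to 13864 with the replicate block, and a model of all 4 groups on 8 arrays gave 10050. With the replicate block 72 of the 77 list calls held and 27 further list loci passed; the labels do not say that a number ties samples of the lines together. Over loci the deviations of same-numbered replicates correlated between the lines at r = 0.55 at 0 h and 0.24 at 8 h, and between lines at different times at 0.06. With the replicate number as a block, added after seeing the data, the 0 h count moved to 6802 (3894 of the 3960 kept) and the count for the change in the line difference to 1. The model of all 4 groups with that block within each time gave 15210. The calls held were 56 of 77 with no scaling or no filter, 42 with all 4 groups in the model and 71 or more under the other settings. Dim loci limit the bounds: a level below background has no size here.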
